A study of Mus musculus with 23 samples.

Results

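Rnaset2a (ENSMUSG00000095687) and Rnaset2b (ENSMUSG00000094724) are the 2 mouse genes that encode ribonuclease T2, and they are described here singly and as their sum, 2 of 47643 gene identifiers, in all 5 groups of a study of interleukin-38 (IL-38) in mammary tumors. They were chosen because both had been seen to rise with IL-38 inhibited, in the comparison of 10 tumors with IL-38 neutralized or knocked out against 9 control tumors. The values of that comparison, and of the antibody and the knockout taken alone, are therefore given as a description without a test.

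Ribonuclease T2 is the T2-family endoribonuclease of mammals, an enzyme that cuts single-stranded RNA at acid pH. It works in lysosomes and is also secreted, and it degrades RNA that reaches the endolysosome, in step with the exonucleases Pld3 and Pld4. RNA fragments of this compartment are read by Toll-like receptors such as Tlr7, Tlr8 and Tlr13, and ribonuclease T2 is abundant in macrophages and has been studied in tumors. Mice carry a pair of near-identical copies of the gene, whereas humans have a single RNASET2.

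The 23 libraries came from PyMT mammary tumors of female mice on a C57BL/6 background, whose tumors arise from the polyoma virus middle T oncoprotein. In the neutralization experiment, PyMT WT mice received IgG1 isotype control (5 libraries) or anti-IL-38 (6 libraries) from a first tumor of 0.6 cm in diameter. In the second experiment, begun at an age of 13 weeks, PyMT WT mice received IgG (4 libraries), and PyMT IL-38 KO mice, which lack IL-38 in all their cells, received IgG (4 libraries) or anti-γδTCR antibodies against the T cell receptor of γδ T cells (4 libraries). All mice were dosed weekly over 5 weeks, whole tumors were dissociated before RNA was isolated, and WT mice with γδ TCR blockade were not analysed here.

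The libraries held 6273049 to 15879164 reads on genes. The 4 libraries with γδ TCR blockade and replicate 4 of the IL-38 KO IgG group stood apart from the other 18, with 11.3% to 20.1% of reads on the transcript Gm42418 and 1.31% to 1.98% on processed pseudogenes, against 2.62% to 5.70% and 0.0943% to 0.191%. Il1f10, which encodes IL-38, had 0 reads in every library, so it could not check the labels. A count of 0 was taken to allow up to 3 reads, an approximate limit. Depending on the library, this is a level of 0.189 to 0.478 CPM (a gene's reads over all reads on genes, on a common scale). The 10 luminal epithelial markers that define the labelled tissue, such as Epcam and Krt8, were all present in each group and summed to 1734 to 4449 CPM.

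The near-identity of the copies bears on every value, so their transcripts were compared in GENCODE M21 (build GRCm38). Both genes lie on chromosome 17 and are transcribed from opposite strands. The transcripts Rnaset2a-201 with 1793 bases and Rnaset2b-201 with 1783 were 99.1% identical. Their coding sequences of 780 bases, stop codon included, held 0 differences, so the annotation gives both copies the same protein. The last 60 coding bases are shown because 3′ reads of either gene can end there and cannot be assigned.
both copies: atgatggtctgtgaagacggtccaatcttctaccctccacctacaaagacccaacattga

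All differences between this pair of transcripts lay in the untranslated regions. With positions counted from 1 at the 5′ end of Rnaset2a-201, and the base of Rnaset2a written first, these were A162G and G393C before the coding sequence, then C1213T, C1525T, C1716A, G1765T and G1775A after it, and 10 bases, 1568 to 1577, that Rnaset2b-201 lacks. The stretches around the substitutions after the coding sequence are shown because, beside the missing 10 bases, they tell this pair apart in a 3′ library, with the bases that differ in capitals. The longer pair Rnaset2a-202 (2456 bases) and Rnaset2b-202 (2448 bases) differed at 13 substitutions and 8 gap bases, also with identical coding sequence.
Rnaset2a C1213T: aatattttgtgtccCacaaagtaagaaaa
Rnaset2b C1213T: aatattttgtgtccTacaaagtaagaaaa
Rnaset2a C1525T: aattactctgtttaCatcaaattaaaaat
Rnaset2b C1525T: aattactctgtttaTatcaaattaaaaat
Rnaset2a C1716A: ttctatagtgaaatCacactccccagtga
Rnaset2b C1716A: ttctatagtgaaatAacactccccagtga
Rnaset2a G1765T and G1775A: taaggaaaaGctcttcaatGaagtatatg
Rnaset2b G1765T and G1775A: taaggaaaaTctcttcaatAaagtatatg

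The last of these changes falls in the hexamer AATAAA, the common polyadenylation signal, which occurred 1 time in the last 40 bases of Rnaset2b-201 and 0 times in those of Rnaset2a-201, where AATGAA stood in its place. How many reads can separate the copies depends on where the transcript ends. Of the 226 stretches of 75 bases, the length of a read, within the last 300 bases of Rnaset2a-201, 71.7% did not occur in Rnaset2b-201. Before the shorter end that RefSeq gives for Rnaset2a at position 1289, this share was 33.2%, all of it through the single base C1213T. Before position 1163, where the annotated Rnaset2b-206 ends, it was 0%. Over the whole transcript it was 25.0%. The GRCm39 build named in the submitters' processing notes was not at hand, and the sources used here do not say how reads that match both copies were counted. The values of each copy are therefore uncertain where reads were split or dropped, whereas such a split between the copies cancels in the sum. Reads that were dropped would be missing from the sum as well.

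Reads on Rnaset2a ranged from 615 to 3413 per library and reads on Rnaset2b from 372 to 2157. In CPM the median over the 23 libraries was 146 for Rnaset2a and 96.0 for Rnaset2b, which ranked 1101 and 1928 among 18700 genes with a median above 0. Rnaset2a held 57.0% to 66.2% of the reads of both copies, with a median of 62.2%. In the anti-IL-38 group this share lay between 62.6% and 64.4%, narrower than in any other group, while in the IL-38 KO IgG group it lay between 57.2% (95% Wilson interval 55.5% to 58.8%) and 64.8% (62.8% to 66.8%). The group means were 62.9% ± 1.91 in isotype controls (SD, n = 5), 63.5% ± 0.639 with anti-IL-38 (n = 6), 60.7% ± 1.09 in WT IgG (n = 4), 60.4% ± 3.41 in IL-38 KO IgG (n = 4) and 59.9% ± 2.43 with γδ TCR blockade (n = 4). The copies thus kept a ratio near 3 reads to 2 in all groups, as the plot of the share by library shows. Over the 19 libraries normalized together, the log2 values of the copies had a Pearson r of 0.96, and of 0.91 once group means were removed. These points share library and depth, and the copies may share reads.

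**Figure D1:**
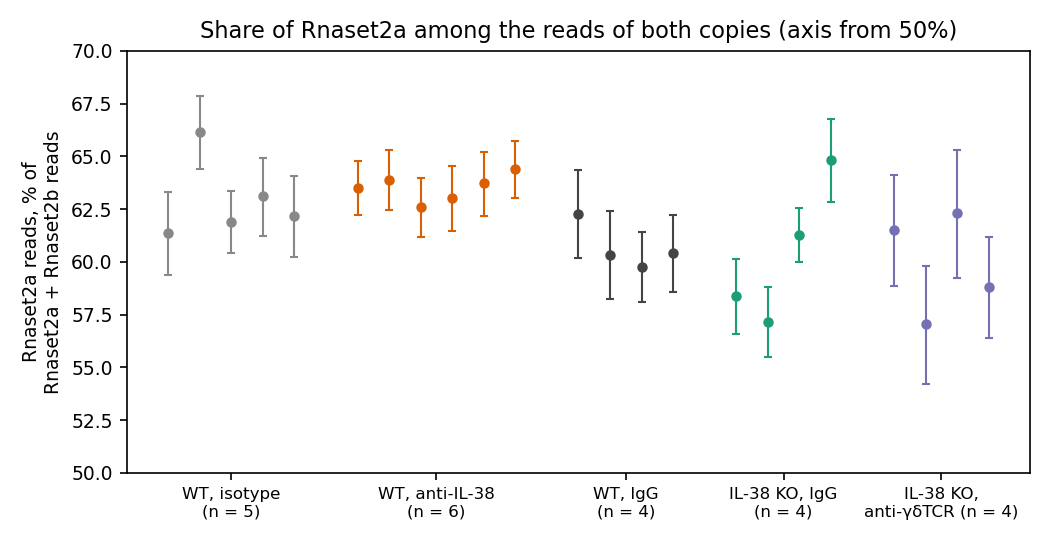
Reads of Rnaset2a as a percentage of the reads of both copies (y axis, from 50% to 70%) in each of the 23 libraries, grouped on the x axis, with 95% Wilson intervals, which cover counting error only. All libraries lie between 57.0% and 66.2%, and the 6 anti-IL-38 libraries lie above all 4 WT IgG libraries and all 4 with γδ TCR blockade, while the other group ranges overlap.

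On the CPM scale, which is the only one that spans both deposited tables, Rnaset2a was 114, 137, 176, 123 and 113 in isotype control replicates 1 to 5. It was 250, 201, 229, 215, 205 and 311 in anti-IL-38 replicates 1 to 6, so the lowest of these lay above the highest isotype control. In WT IgG replicates 1 to 4 it was 113, 100.001, 156 and 146, and in IL-38 KO IgG replicates 1 to 4 it was 138, 153, 215 and 168. In the 4 tumors with γδ TCR blockade it was 101, 79.9, 98.0 and 108, of which replicates 1 and 4 lay above 1 library of another group, WT IgG replicate 2. Rnaset2b lay at a lower level, again highest with anti-IL-38 and lowest on blockade. It was 71.6, 70.1, 108, 72.1 and 68.6 CPM in isotype controls, where replicate 3 stood apart, and 143, 114, 137, 126, 117 and 172 CPM with anti-IL-38. It was 68.3, 65.8, 105 and 96.0 CPM in WT IgG, 98.7, 114, 136 and 91.1 CPM in IL-38 KO IgG, and 63.0, 60.1, 59.3 and 75.4 CPM with γδ TCR blockade. The 3 lowest of these lay below every library of the other groups, and replicate 4 lay above most isotype controls. The totals behind CPM include reads on Gm42418, at 11.6% to 20.1% of reads in the tumors with blockade. With these left out, the sum of the copies was 159 to 207 CPM on blockade and 176 CPM in WT IgG replicate 2. The single copies were not recomputed in this way, so their placing is given only for totals with Gm42418.

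**Figure D2:**
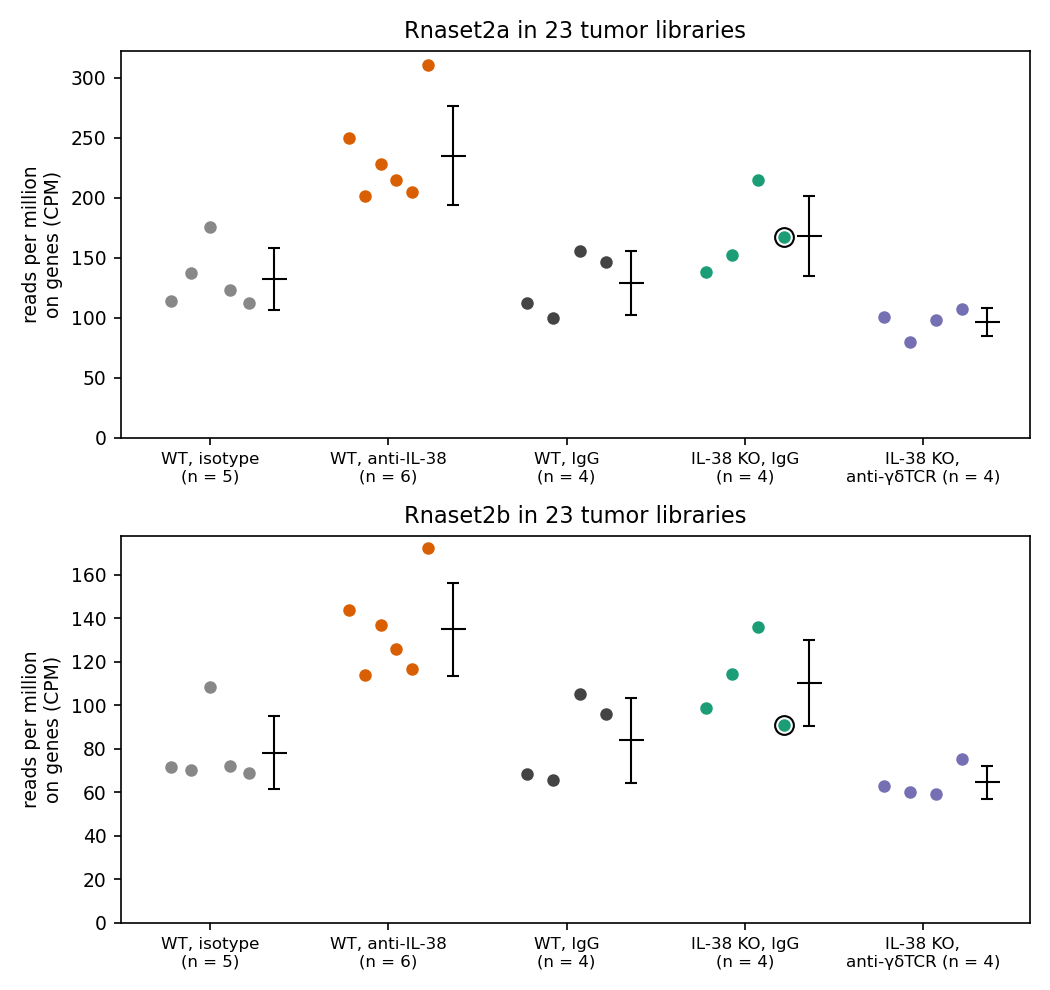
CPM of Rnaset2a (upper panel) and Rnaset2b (lower panel) on the y axis, from 0, in the 5 groups on the x axis, 1 point per library, with the group mean ± SD beside the points and IL-38 KO IgG replicate 4 circled. The anti-IL-38 libraries sit highest, from 201 to 311 for Rnaset2a and from 114 to 172 for Rnaset2b, and those with γδ TCR blockade lowest. The totals behind CPM include reads on Gm42418, whose share was highest in the libraries with blockade.

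Summed over the copies, the order of the group means was anti-IL-38 (370 ± 62.7 CPM, SD, n = 6), IL-38 KO IgG (278 ± 49.9, n = 4), WT IgG (213 ± 46.3, n = 4), isotype control (211 ± 42.0, n = 5) and γδ TCR blockade (161 ± 17.7, n = 4). WT IgG and isotype control, neighbours in this order, differed by 1.92 CPM, far less than their SDs. The gap between isotype control and γδ TCR blockade, 49.6 CPM, was above both SDs, but with reads on Gm42418 left out of the totals it was 30.3 CPM (218 ± 42.8 against 188 ± 20.6), less than the SD of the isotype controls. The gaps from anti-IL-38 to IL-38 KO IgG and from there to WT IgG, 91.3 and 65.9 CPM, were above both SDs, with overlapping libraries in each case. Both gaps rest on tumors that chose the genes, so they are a description and not a test. The gap from anti-IL-38 to IL-38 KO IgG also crosses the experiments. In bulk tissue, fewer cells of a type and less RNA per cell cannot be told apart.

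The authors' normalized counts, reads divided by 1 size factor per library, are used from here on within each table. In the comparison by which the genes were chosen, Rnaset2a was 1633 to 3993 with IL-38 inhibited (median 2605) and 1208 to 2290 in controls (median 1520), and 7 of the 10 exceeded the highest control. Rnaset2b was 1107 to 2210 (median 1559) against 782 to 1410 (median 889), again with 7 of 10 above the highest. The 3 that did not were tumors of IL-38 KO mice, and all 10 lay above the control median for each copy. Among the 16352 genes tested here, the groups separated fully, with all inhibited tumors higher, in 0%. The log2 fold changes on log2(normalized count + 1) were 0.70 (SE 0.15) for Rnaset2a and 0.68 (SE 0.14) for Rnaset2b, above those of 95.1% and 94.8% of genes tested, and the median of all genes tested was 0.0047.

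On neutralization alone, Rnaset2a was 3132, 2632, 3332, 2799, 2537 and 3993 normalized counts in anti-IL-38 replicates 1 to 6, and 1382, 1747, 2290, 1520 and 1444 in isotype control replicates 1 to 5. Rnaset2b was 1799.5, 1488, 1992, 1643, 1445 and 2210, against 870, 894, 1410, 889 and 879. For each copy the lowest anti-IL-38 tumor exceeded the highest control, which held for 0.4% of the 16002 genes tested, a share given without inference because this contrast chose the genes. The mean of the sum was 1.81 times that of the controls, 4834 ± 838 (SD, n = 6) against 2665 ± 597 (SD, n = 5), and the log2 fold changes were 0.88 (SE 0.15) for Rnaset2a, 0.84 (SE 0.16) for Rnaset2b and 0.87 (SE 0.15) for the sum. Isotype control replicate 3 was the control nearest to the treated tumors for both copies.

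Between genotypes, Rnaset2a was 1633, 1782.5, 2577 and 2039 normalized counts in IL-38 KO IgG replicates 1 to 4 and 1291, 1208, 1818 and 1700 in WT IgG replicates 1 to 4. Rnaset2b was 1165, 1336, 1629 and 1107 against 782, 794, 1224 and 1114. The groups overlapped for each copy, with 2 of 4 IL-38 KO tumors above every WT tumor and all 4 above the WT median; the groups separated fully, with the IL-38 KO tumors higher, in 3.66% of the 16563 genes tested. The sum was 1.34 times as high, 3317 ± 613 (SD, n = 4) against 2483 ± 523 (SD, n = 4), and the log2 fold changes were 0.42 (SE 0.18) for Rnaset2a and 0.43 (SE 0.19) for Rnaset2b. Replicate 4 of the IL-38 KO group was the second highest for Rnaset2a and the lowest for Rnaset2b.

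The effects of antibody and knockout were set against each other as an interaction over the 19 libraries. These are the tumors that chose the genes, so the difference is given without a test. Antibody effect minus knockout effect was 0.46 (SE 0.25) for Rnaset2a, 0.41 (SE 0.25) for Rnaset2b and 0.44 (SE 0.25) for the sum in limma, where 0.00612% of all genes passed the adjusted threshold of 0.05. Experiment, antibody used as control and start of treatment cannot be told apart from the way of inhibition. The control groups of the experiments, WT IgG against isotype control, differed by −0.15 (SE 0.18, adjusted p = 0.666) for Rnaset2a, −0.02 (SE 0.19, adjusted p = 0.974) for Rnaset2b and −0.10 (SE 0.18, adjusted p = 0.790) for the sum, in limma with Benjamini-Hochberg adjustment over all genes, where 0.0994% of 16099 genes passed. Both groups were the controls of the comparison that chose the genes, which these p-values do not take into account.

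**Figure D3:**
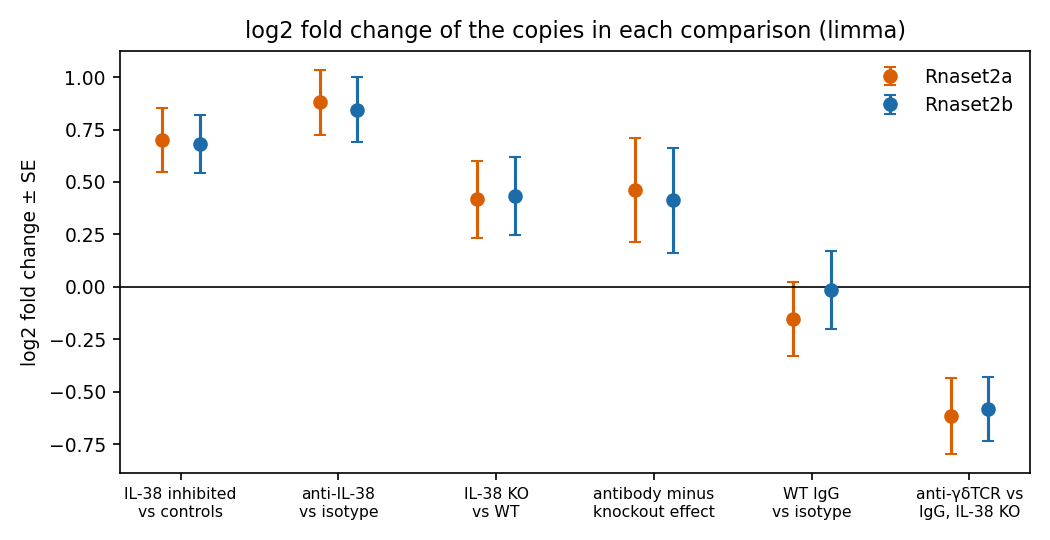
log2 fold change ± SE from limma (y axis) of Rnaset2a and Rnaset2b in 6 comparisons (x axis). The copies lie within 1 SE of each other in each comparison, above 0 with IL-38 inhibited (0.70 and 0.68), near 0 between the control groups and below 0 on γδ TCR blockade (−0.61 and −0.58). The first 4 values rest on the tumors that chose the genes and carry no test. The control groups compared with each other, and the controls of the blockade, were also among those tumors.

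γδ TCR blockade in IL-38 KO mice was not used to choose the genes, although its 4 controls, the IL-38 KO IgG libraries, were among the tumors in which the rise had been seen. A choice made on high values there favors lower values in any group set against them, which the p-values below do not take into account. In the table of 8 libraries that the authors normalized together, Rnaset2a was 1056, 783, 1113 and 1041 normalized counts on blockade and 1226, 1351, 1991 and 1597 in controls. Rnaset2b was 661, 589, 673 and 729.5 on blockade and 874, 1013, 1258 and 867 in controls. All 4 tumors with blockade lay below all 4 controls for each copy and for the sum, a full separation that 4.98% of the 16481 genes tested showed in this direction. The sum was 1661 ± 195 (SD, n = 4) against 2544 ± 494 (SD, n = 4), 0.653 times the control level.

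The log2 fold change on blockade was −0.61 (SE 0.18) for Rnaset2a, −0.58 (SE 0.15) for Rnaset2b and −0.60 (SE 0.16) for the sum, and for the copies 9.82% and 10.7% of genes tested lay lower. In limma these did not pass the threshold of 0.05 (adjusted p = 0.0837, 0.0666 and 0.0702), and 0% of all genes passed, while 21.7% had an unadjusted p under 0.05. DESeq2 on the recovered reads gave adjusted p = 0.0351, 0.0166 and 0.0179, where 3.7% of genes passed as lower, and edgeR gave 0.135, 0.120 and 0.126. Over all alternatives, leaving out 1 library included, the adjusted p ranged from 0.0351 to 0.228 for Rnaset2a, from 0.0166 to 0.203 for Rnaset2b and from 0.0179 to 0.203 for the sum. Over the samples alone, each copy and the sum had p = 0.0286 in a two-sided exact permutation test, the smallest that 70 groupings of 4 against 4 allow. The share of Rnaset2a in the sum, the last of 4 values so tested, differed by −0.49 percentage points (exact permutation test, p = 0.886).

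**Figure D4:**
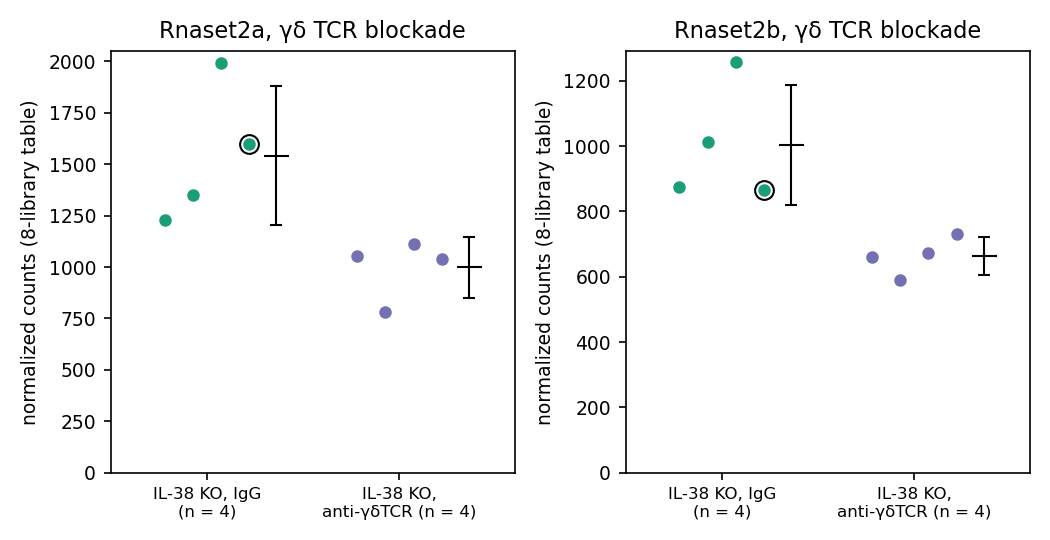
Normalized counts of the 8-library table (y axis, from 0) of Rnaset2a (left panel) and Rnaset2b (right panel) in IL-38 KO tumors with IgG or anti-γδTCR (x axis), 1 point per library with group mean ± SD. The highest tumor with blockade (1113 and 729.5) lies below the lowest control (1226 and 867), and the circled control replicate 4 lies with the other controls.

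The libraries with blockade and control replicate 4 share the high level of Gm42418 and of processed pseudogenes, and their part in the difference was not tested. Replicate 4 stood with the other controls, at 1597 normalized counts of Rnaset2a, the second highest of the 4, and 867 of Rnaset2b, the lowest. Without it, the log2 fold changes were −0.59 for Rnaset2a and −0.65 for Rnaset2b (adjusted p = 0.0723 and 0.0180 in limma). The sum had −0.61 (adjusted p = 0.0417 in limma). In this setting 2357 genes passed the threshold in limma, against 0 with replicate 4 kept, so passing it was not particular to the copies. Against these 3 controls alone, treatment and the features that set the libraries apart cannot be told apart.

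The genes that work beside ribonuclease T2 in the endolysosome lay on either side of 0 with IL-38 inhibited. Of 16 listed genes of nucleic acid handling, 15 were tested, 5 of them higher and 10 lower, with a median log2 fold change of −0.04. In limma and in DESeq2 0 passed the adjusted threshold (0% and 0.385% of all genes, the latter as higher), and 2 had an unadjusted p under 0.05 in limma, as did 10.5% of all genes. The exonucleases Pld3 and Pld4 had log2 fold changes of −0.04 and −0.25, the deoxyribonuclease Dnase2a of −0.03, and the RNA-sensing receptors Tlr7, Tlr8 and Tlr13 of −0.29, −0.39 and −0.56 (adjusted p from 0.531 to 0.964). Tlr3, a receptor for double-stranded RNA, had 0.29 (adjusted p = 0.424), and Unc93b1, which carries these receptors to the endosome, 0.21 (adjusted p = 0.528). Samhd1, a dNTP hydrolase of the cytosol and nucleus, had −0.30 (adjusted p = 0.289). The nucleoside and peptide transporters Slc29a3, Slc15a3 and Slc15a4 had −0.01, −0.45 and −0.12, and Sidt1, Sidt2 and Lamp2, linked to RNA transport and uptake of RNA by lysosomes, had 0.06, 0.22 and 0.13, with adjusted p of at least 0.477. Tlr9 was not tested, as its reads did not exceed 0.312 CPM in any library.

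On γδ TCR blockade 14 of the 15 genes of this list had lower values, with a median of −0.29 where all genes had 0.02. In limma 0 passed, and at an unadjusted p under 0.05 it was 4, all lower, where 9% of all genes tested were lower at that level. The same 4 passed in DESeq2, where 3.7% of all genes passed as lower. These were Tlr13 (−2.50, SE 0.61, adjusted p = 0.0657 in limma and 0.000222 in DESeq2), Tlr7 (−1.69, SE 0.41, adjusted p = 0.0657 and 0.00322), Pld3 (−0.997, SE 0.33, adjusted p = 0.109 and 0.0237) and Slc15a3 (−0.99, SE 0.30, adjusted p = 0.0889 and 0.0218). Sidt1 was the exception at 0.55 (adjusted p = 0.248 in limma). The summed level of the list was 1268 to 1455 CPM on blockade, 1293 CPM in control replicate 4, and 1898 to 1935 CPM in the other controls. In contrast to the ribonuclease copies, the list in replicate 4 thus lay within the range of the tumors with blockade.

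**Figure D5:**
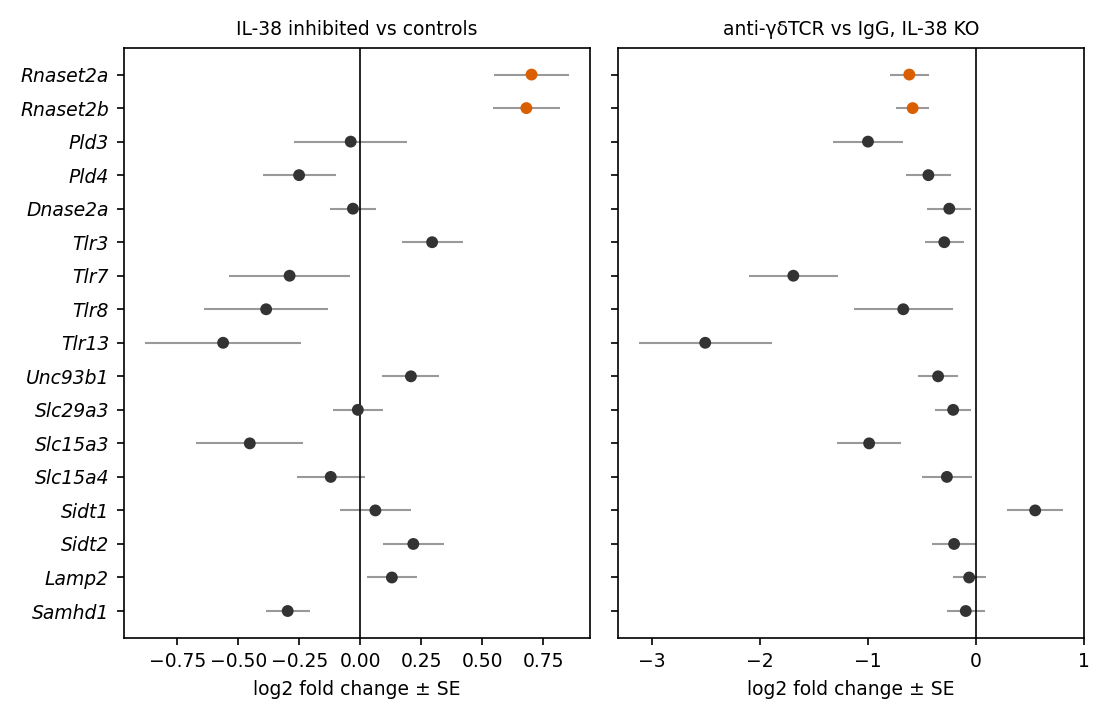
log2 fold change ± SE from limma (x axes, on different scales) of Rnaset2a, Rnaset2b and 15 tested genes of endolysosomal nucleic acid handling (y axis), with IL-38 inhibited (left panel) and on γδ TCR blockade (right panel). The copies stand to the right of all listed genes in the left panel, where Tlr3 is nearest at 0.29, while 14 of 15 listed genes lie below 0 in the right panel, Tlr13 lowest at −2.50.

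Other ribonucleases were mixed. Of 12 genes of the RNase A family with its inhibitor Rnh1, 6 were tested with IL-38 inhibited, 5 of them lower, with a median of −0.14. Rnase2a, an eosinophil-associated ribonuclease of a gene cluster with close relatives that may share reads, had a median of 0.311 CPM. Its mean normalized count was 4.08 with IL-38 inhibited and 12.5 in controls, so it passed the filter on low values only through the controls, and its log2 fold change of −1.54 (SE 0.37, adjusted p = 0.196 in limma) is no support for a difference. Rnase4, a secreted member, had 0.38 (adjusted p = 0.559). Rnase2a was also the 1 of the 6 with an unadjusted p under 0.05 in limma, as had 10.5% of all genes, and 0 passed in limma or DESeq2. On blockade 5 were tested, with a median of −0.75, among them Ang (angiogenin) at −0.93 (adjusted p = 0.139) and Rnh1 at −0.32 (adjusted p = 0.202). Of 20 ribonucleases of other classes, all tested, 8 were higher and 12 lower with IL-38 inhibited (median −0.07), and 11 were higher and 9 lower on blockade (median 0.06). Rnaseh1, which cuts RNA in RNA-DNA hybrids, had 1.25 with IL-38 inhibited (SE 0.44, adjusted p = 0.355) and −1.56 on blockade (SE 0.36, adjusted p = 0.0657 in limma and 0.00981 in DESeq2). The IRE1 endoribonuclease Ern1 had 0.27 and −0.21 (adjusted p = 0.477 and 0.715).

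Lysosomal hydrolases, the enzyme class among which ribonuclease T2 works, were also mixed with IL-38 inhibited. Of 35 tested, 16 were higher and 19 lower, with a median of −0.13. In limma 0 passed and 6 had an unadjusted p under 0.05, all higher, where 10.5% of all genes had such a p in either direction. In DESeq2 1 passed as higher, as did 0.385% of all genes. Ppt1, palmitoyl-protein thioesterase, had 0.39 (adjusted p = 0.309). On blockade 28 of the 35 had lower values, with a median of −0.40, 0 passed in limma, and 14 were lower at an unadjusted p under 0.05, as were 9% of all genes. In DESeq2 9 passed as lower, as did 3.7% of all genes, among them Tpp1, tripeptidyl peptidase, at −0.68 (adjusted p = 0.0657 in limma and 0.00250 in DESeq2), and Man2b1, lysosomal alpha-mannosidase, at −1.10 (adjusted p = 0.0657 and 0.00361). Their summed level was 4385 to 5589 CPM on blockade and 4931 CPM in control replicate 4, against 10893 to 13582 CPM in the other controls.

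Cell type markers moved with some of these groups, and their part in the Rnaset2 values was not tested. With IL-38 inhibited, all 10 macrophage markers had lower values (median −0.27, 0 past the threshold in limma or DESeq2, 1 at an unadjusted p under 0.05), and their sum was 2346 to 3187 CPM with anti-IL-38, 2763 to 3664 CPM in isotype controls, 1225 to 2582 CPM in IL-38 KO IgG and 2408 to 3121 CPM in WT IgG, with 0 of the 10 at 0 reads in any group. All 10 luminal epithelial markers had higher values (median 0.29, 0 past the threshold in limma or DESeq2, 4 at an unadjusted p under 0.05), with sums of 2580 to 4449 CPM with anti-IL-38 and 1734 to 3577 CPM in isotype controls, and 3313 to 3745 against 2438 to 3590 CPM for IL-38 KO and WT. Of all genes tested with IL-38 inhibited, 10.5% had an unadjusted p under 0.05 in limma, in either direction. Cldn4, a tight junction claudin, had 1.11 (SE 0.29, adjusted p = 0.251) and Cldn3 had 0.58 (SE 0.19, adjusted p = 0.331). The isotype control with the highest Rnaset2 values, replicate 3, was also the highest of its group for the luminal epithelial sum (3577 CPM) and the lowest for the macrophage sum (2763 CPM). WT IgG replicate 3, highest of its group for both copies, was highest for the luminal sum too (3590 CPM). The reverse held for anti-IL-38 replicate 6 and IL-38 KO IgG replicate 3. These were highest of their groups for both copies and lowest for the luminal sum (2580 and 3313 CPM). The latter also had the highest macrophage sum of its group (2582 CPM).

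On blockade, 8 of 10 macrophage markers had lower values (median −0.72), 0 past the threshold in limma and 5 as lower in DESeq2, where 3.7% of all genes passed as lower, of which Adgre1, the F4/80 antigen, had −1.45 (adjusted p = 0.0657 in limma and 0.000520 in DESeq2), Cd68, a lysosomal glycoprotein, −2.16 (adjusted p = 0.0657 and 7.51e-06) and Mertk, a receptor for the uptake of dying cells, −1.29 (adjusted p = 0.116 and 0.00682). The macrophage sum was 951 to 1521 CPM on blockade, 1225 CPM in control replicate 4 and 2036 to 2582 CPM in the other controls. The luminal epithelial sum was 3180 to 3945 CPM on blockade and 3313 to 3745 CPM in controls, 8 of 10 markers being higher (median 0.17), with Cldn7 at 0.43 (adjusted p = 0.0811 in limma and 0.0246 in DESeq2, where 2.58% of all genes passed as higher) and Krt18 at 0.52 (adjusted p = 0.149 in limma). Of the 10 T cell markers, 9 were tested and all had higher values on blockade (median 0.57, 0 past the threshold in limma or DESeq2, 1 at an unadjusted p under 0.05), at summed levels of 11.2 to 20.7 CPM against 7.21 to 19.4 CPM in controls. Of all genes tested, 21.7% had an unadjusted p under 0.05 in limma on blockade and 10.5% with IL-38 inhibited, in either direction. The medians of the other lists on blockade were −0.69 for neutrophils, 0.22 for dendritic cells, 0.13 for B and plasma cells, 0.18 for fibroblasts, 0.09 for endothelial cells, 0.62 for basal cells, −0.02 for adipocytes and 1.34 for skeletal muscle. With IL-38 inhibited they were −0.36, −0.15, 0.29, 0.34, 0.16, 0.06, −0.51 and 1.18 in the same order, and 0.08 for T cells, with 0 genes of these lists past the threshold of limma or DESeq2 in either comparison and at most 1 of a list at an unadjusted p under 0.05.

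Of the genes nearest to the copies on the chromosome, 0 passed the threshold where tested. Tagap1, the nearest protein-coding gene before Rnaset2b, had a log2 fold change of −0.25 with IL-38 inhibited (adjusted p = 0.517 in limma) and −0.23 on blockade (adjusted p = 0.643), at a median of 7.68 CPM. Fgfr1op, the nearest after Rnaset2a, had 0.09 (adjusted p = 0.850) and −0.12 (adjusted p = 0.771), at 10.7 CPM. On the other sides, Gm1604a had a median of 0 CPM and Rsph3a, a radial spoke gene, one of 0.386 CPM.

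By the pattern over the 19 libraries of the larger table, 13607 genes with a mean of at least 20 normalized counts were ranked by the Pearson r of their log2 values with the summed copies, as a description. Over all libraries the highest included Enpp5 (r = 0.92), a member of the ectonucleotide pyrophosphatase family, Itm2c (0.88), an integral membrane protein, 1600012H06Rik (0.88) and Abhd16a (0.86), a lipid hydrolase. These values hold the difference by which the copies were chosen. After the mean of each group was removed, the highest were 1600012H06Rik (0.85), Il1rap (0.83), the accessory chain of interleukin-1 family receptors, Afg1l (0.81), a mitochondrial ATPase, Pros1 (0.80), which encodes protein S, and Abhd2 (0.80), a hydrolase. The points share library and depth. On blockade all 5 of the second set had lower values, where 51.9% of all genes tested had higher ones. The 4 libraries with blockade did not enter these correlations, but their 4 controls did, so this too is a description. The log2 fold changes ran from −0.70 for Abhd2 (adjusted p = 0.151 in limma) and −0.60 for Il1rap (adjusted p = 0.185) to −0.12 for Afg1l (adjusted p = 0.841), and 0 passed the threshold. Of the first set, Enpp5 had −0.11, Itm2c −0.04, 1600012H06Rik, which is in both sets, −0.25 and Abhd16a 0.06 on blockade (adjusted p from 0.519 to 0.921 in limma).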

How the data were processed

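Tumor RNA was prepared with QuantSeq, a 3′ mRNA method, and read in single runs of 75 cycles. The submitters' processing notes name STAR, HTSeq, DESeq2 and GRCm39, without roles or versions. The deposited values are a signal, read counts which the authors divided by 1 size factor per library, in a table of 19 libraries and a separate one of 8, which share the 4 IL-38 KO IgG libraries with identical reads. Division by what 1 read is worth gave whole reads for 100% of values (tolerance 0.0001%), also in WT IgG replicate 1, where this step was 0.996. Of 47643 identifiers 47224 had a symbol in GENCODE M21, which also gave transcripts and neighbours.

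Genes whose normalized counts averaged 5 or more were tested on log2(value + 1), a scale that understates changes of low genes, by limma 3.58.1 (R 4.3.3; trended eBayes, two-sided), adjusted by Benjamini-Hochberg at 0.05 over all genes. Fits held the compared groups alone, apart from the interaction. For the sum, 1 summed row replaced both copies. Alternatives were edgeR 4.0.16 and DESeq2 1.42.0 on the recovered reads, other pseudocounts and filters, TMM, a replicate block, an experiment term and leaving out each library. Counts were simulated with 200 changed genes, all well expressed, with changes larger than those of the copies and the same spread for every gene. In these, limma recovered 197 to 200 over the 6 comparisons, with 5 to 14 false calls. The spread between the real tumors was not simulated, so this does not show what was missed here. Recovery of differences as small as those of the copies was not tested. Transcripts were aligned globally with Biopython 1.88.

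Equal replicate numbers did not pair the libraries (correlations of deviations −0.169 to 0.0834). The labels say only that replicates are separate samples, so p-values measure the spread between these libraries. Intervals cover counting error only. The genes, the lists and their tests were chosen with earlier results of these data known. All genes of the nucleic acid list could be named, and of other lists the 2 with the smallest unadjusted p with IL-38 inhibited and the 2 on blockade, besides the 5 genes most alike and the nearest protein-coding neighbours. Results of some genes that this rule names are not reported here.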

Additional observations from a re-analysis of the deposited data

Results flagged for a closer look

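Isotype control replicate 3 lay apart from the other 4 isotype controls, its gap to the nearest being larger than Dixon's 95% critical value allows. Its normalized count was 1410 for Rnaset2b, against 870 to 894 in the others, and 3700 for the sum, against 2253 to 2641. In CPM it had 108 for Rnaset2b, against 68.6 to 72.1, and 284 for the sum, or 293 with Gm42418 left out of the totals. Among tumors with γδ TCR blockade, replicate 2 was low for the sum, at 1372 normalized counts in the table of 8 libraries against 1716 to 1786 in the others. Processed pseudogenes took 1.46% of reads in IL-38 KO IgG replicate 4, while the rest of its group had 0.167% to 0.191%. In all, 7 of 58 sets of values were marked in this way, many of them on the same libraries, where chance marks about 1 in 20.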

How the results depend on the processing

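In the comparisons that chose them, the copies and their sum kept the direction of their log2 fold change under all alternatives run, from 0.62 to 0.77 with IL-38 inhibited, 0.78 to 0.999 by antibody and 0.29 to 0.55 by knockout. On γδ TCR blockade they lay between −0.72 and −0.47, and the side of the threshold depended on the test. DESeq2 gave −0.63 (Rnaset2a), −0.60 (Rnaset2b) and −0.61 (sum), past 0.05. With 1 library left out, the ranges were −0.72 to −0.48 for Rnaset2a, −0.65 to −0.47 for Rnaset2b and −0.69 to −0.48 for the sum; the exact test then cannot go below p = 0.0571. The Rnaset2a share moved between −1.57 and 0.979 percentage points, turning positive without IL-38 KO IgG replicate 4 (0.979) or γδ TCR replicate 2 (0.465). Between control groups Rnaset2b ranged from −0.13 to 0.12, positive without isotype control replicate 3 (0.12), WT IgG replicate 1 (0.08) or 2 (0.07), and the sum from −0.21 to 0.023, positive without isotype control replicate 3. The interaction stayed positive in all alternatives run.

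Counts of genes called moved with the test and with single libraries; the cause was not tested. DESeq2 called 1036 genes on blockade (426 higher and 610 lower), 22 in the interaction, 738 between control groups, 70 with IL-38 inhibited, 75 by antibody and 305 by knockout. edgeR called 0 in the interaction, 0 by knockout and 1 with IL-38 inhibited, as did the experiment term (1). A pseudocount of 0.5 gave 7 between control groups. The replicate block gave 36 there, 1 by antibody and 0 by knockout, and changed no call of the copies. With 1 library left out, limma called 0 to 2357 on blockade, the highest without IL-38 KO IgG replicate 4, 0 to 2 in the interaction, 0 to 45 between control groups, 0 to 23 with IL-38 inhibited and 0 to 6 by antibody (both highest without isotype control replicate 3) and 0 to 7 by knockout. The copies had at least 372 reads in every library. Libraries with blockade held 6273049 to 8794202 reads on genes and their controls 8620899 to 15879164. The part of depth in the differences was not tested.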
